A study of Mus musculus with 12 samples.

Results

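The transcription factor NRF2 (gene Nfe2l2), its inhibitor KEAP1 (gene Keap1) and 8 antioxidant genes that NRF2 is known to activate (Hmox1, Nqo1, Gclc, Gclm, Srxn1, Txnrd1, Prdx1 and Slc7a11) were followed in lung cells of mice that had received nanoparticulate carbon black. The members were all probes that the array's annotation assigns to 1 of these 10 gene symbols, of 13095 symbols in all. A probe was listed for 9 of the 10 genes and none for Gclc, which gave 21 probes of 45281. Of these, 17 probes, covering all 9 genes, were detected on at least 3 of 12 arrays (detection p under 0.05) and were tested. The other 4 were each detected on 1 array and are given by their values alone.

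KEAP1 binds NRF2 in unstressed cells and has it degraded. Oxidants and electrophiles modify cysteines of KEAP1, NRF2 then gathers in the nucleus with a small MAF protein and binds antioxidant response elements, short DNA motifs near its target genes. In lung macrophages this pathway is known for its part in the response to inhaled particles and smoke.

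RNA was hybridized to 12 Illumina bead arrays, which hold bead-bound probes for labelled cRNA. The samples were lung cells that carry the integrin CD11c, found on alveolar macrophages and dendritic cells, separated with AutoMACS (a magnetic sorter) and called antigen-presenting cells in the labels. The 4 groups of 3 arrays were wild-type mice given PBS (saline, the reference), Mir22-/- mice given PBS, wild-type mice given nCB (nanoparticulate carbon black) and Mir22-/- mice given nCB. All groups carried the strain label B6(Cg)-Tyrc-2J/ J and the labelled age of 4 months, and the labels place the exposure at 1 month from the age of 2 months. The Mir22-/- mice, called knockout below, lack the gene of the microRNA miR-22, and the labels do not limit the deletion to a cell type. No probe was listed for Mir22, so the genotype labels were not checked on the deleted gene. Whether each array holds a different animal is not said in the labels, so the spread behind every p-value may be technical.

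Arrays had mean intensities of 156 to 218, detected 31.4% to 35.0% of the probes, and correlated within a group at 0.985 to 0.992 across probes. Itgax, the gene of CD11c, was detected on all 12 arrays. Of the alveolar macrophage markers, 13 were tested. With nCB, 1 rose and 8 fell in wild type, and 1 rose and 5 fell in knockout. Their summed normalized intensity was 26557 to 27300 in wild-type PBS, 25820 to 27707 in knockout PBS, 15413 to 18906 in wild-type nCB and 21528 to 24068 in knockout nCB. Of 12 monocyte and interstitial macrophage markers, 7 rose and 1 fell in wild type, and 8 rose in knockout. Their summed intensity was 4980 to 5380 and 5273 to 5767 with PBS, and 10311 to 11861 and 8359 to 10227 with nCB, in wild type and knockout. Of 9 conventional dendritic cell markers tested, 4 rose and 2 fell in wild type, and 3 rose in knockout. Zbtb46, a defining dendritic cell gene, was detected on no PBS array, and Siglecf, a defining alveolar macrophage gene, on 3 of 12 arrays. Most other markers of these lists were detected. Of 13 alveolar macrophage probes, 12 were detected on all 3 arrays in every group. Of 11 dendritic cell probes, this held for 9 in wild-type PBS, 7 in knockout PBS and 8 in each nCB group. Neutrophil markers fell in 3 of 6 in wild type and rose in 1 in knockout, lymphocyte markers rose in 1 and fell in 1 of 7 in wild type, and epithelial markers rose in 1 and 2 of 7. Over all tested probes, 7.88% rose and 8% fell with nCB in wild type, and 7.81% rose and 7.38% fell in knockout. The part of the marker differences in the changes below was not tested. In a mixed sample, fewer cells of a type and less RNA per cell cannot be told apart.

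The start regions of 3 members are shown first, because NRF2 acts on its targets through short motifs. Slc7a11 and Srxn1 passed in both genotypes, and Prdx1, which passed in neither alone, is shown for comparison with Srxn1. The sequences are 300 bases from RefSeq (build GRCm38.p6), 250 before and 50 after the annotated start, written 5′ to 3′ on the strand of the gene. Capitals mark the letters of an antioxidant response element core, TGACNNNGC, or of its looser forms TGAGNNNGC and TGATNNNGC, on either strand, a match on the other strand showing as its reverse complement. The Slc7a11 window lies at chr3:50443564-50443863 (minus strand), around the start of 1 transcript inside a gene record that spans chr3:50364936-50499087. The Srxn1 window lies at chr2:152105274-152105573 (plus strand) and that of Prdx1 at chr4:116685349-116685648 (plus strand).
Slc7a11: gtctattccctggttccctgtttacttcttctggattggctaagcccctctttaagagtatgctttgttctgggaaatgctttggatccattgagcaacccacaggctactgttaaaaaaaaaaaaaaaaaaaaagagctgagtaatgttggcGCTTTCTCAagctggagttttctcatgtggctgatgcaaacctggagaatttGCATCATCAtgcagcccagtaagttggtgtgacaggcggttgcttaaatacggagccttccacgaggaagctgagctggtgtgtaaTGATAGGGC
Srxn1: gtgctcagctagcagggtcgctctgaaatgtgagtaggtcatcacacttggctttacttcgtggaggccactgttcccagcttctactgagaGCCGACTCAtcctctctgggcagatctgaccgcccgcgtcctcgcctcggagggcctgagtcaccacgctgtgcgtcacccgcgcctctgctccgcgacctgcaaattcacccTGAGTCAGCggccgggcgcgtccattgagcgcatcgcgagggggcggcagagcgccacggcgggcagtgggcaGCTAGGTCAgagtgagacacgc
Prdx1: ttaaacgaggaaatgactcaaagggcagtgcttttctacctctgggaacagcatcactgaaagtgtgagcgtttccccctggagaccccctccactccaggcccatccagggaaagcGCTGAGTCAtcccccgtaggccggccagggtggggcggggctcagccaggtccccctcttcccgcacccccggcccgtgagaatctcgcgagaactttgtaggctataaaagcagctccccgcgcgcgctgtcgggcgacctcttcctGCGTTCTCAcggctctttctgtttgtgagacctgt

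In Srxn1 the match TGAGTCAGC stands at -45 (leftmost base, counted from the gene's start) on the gene's strand and overlaps the AP-1 motif TGACTCA read on the other strand. Further matches stand on the other strand, the looser form TGAGTCGGC at -158 and the core TGACCTAGC at 29, beside a second TGACTCA at -102. The Slc7a11 window holds TGAGAAAGC at -97 and TGATGATGC at -45 on the other strand and TGATAGGGC at 42 on the gene's strand, and no TGACNNNGC. Prdx1 holds TGACTCAGC at -133, again overlapping TGACTCA, and TGAGAACGC at 16, both on the other strand, and a further TGACTCA at -237. Of 32851 promoter windows of this length, 12.4% hold TGACNNNGC, 17.6% TGAGNNNGC, 8.09% TGATNNNGC and 33.9% at least 1 of them. TGACTCA stands in 5.2% and TGANTCAGC, the letters shared by the Srxn1 and Prdx1 matches, in 1.19%. The latter pattern was defined from those matches, so its share cannot show whether their presence in both genes is unusual. Among the other members with a window in the table, Gclm (TGACGGTGC), Nfe2l2 (TGACTCCGC) and 1 of 3 windows of Txnrd1 (TGACAAAGC) hold a TGACNNNGC core, while Keap1 and Nqo1 hold none of these letters. A match is a description of letters and not a measured binding site.

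miR-22 itself is known to act through its mature strands, and the seed (bases 2 to 8, in capitals) pairs with target RNAs. Its 3p strand, shown because the knockout mice lack the gene, is encoded at chr11:75463772-75463793 (plus strand, GRCm38.p6).
mmu-miR-22-3p: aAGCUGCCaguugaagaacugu

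With nCB, wild-type cells had more RNA of the cystine importer Slc7a11, of Srxn1, which repairs overoxidized peroxiredoxins, and of Hmox1, the enzyme that breaks down haem. Of the 17 member probes, 6 rose and 0 fell (35.3% higher), against 7.88% of all 17346 tested probes that rose in this comparison and 8% that fell. These 6 probes lay in 3 genes. In knockout cells 5 of the 17 rose and 0 fell (29.4%), against 7.81% higher and 7.38% lower over all probes, in Slc7a11, Srxn1 and Keap1. The number that rose in knockout was 3 without knockout PBS 1, knockout PBS 3, knockout nCB 1 or knockout nCB 3, and 3 under 5 alternative settings. Without knockout nCB 1, 1 probe (Nfe2l2) also fell. The median log2 difference over the 17 probes was 0.24 in wild type and 0.27 in knockout, and -0.02 over all tested probes in either genotype. In wild type the nCB arrays lay above the PBS arrays without overlap for 9 of the 17 probes, against 14.6% of all probes, and below them for 1. In knockout this held for 6, against 14% of all probes, and for 0. Counting either direction, the groups did not overlap for 32% of all probes in wild type and 29.6% in knockout. A probe was called when its adjusted p, from limma with Benjamini-Hochberg adjustment over all tested probes, was under 0.05. Counted by gene, each by its tested probe with the highest mean, 3 of 9 rose and 0 fell in each genotype. The members were chosen with earlier results of these data known. An excess over the shares of all probes is therefore a description and not a test.

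**Figure D1:**
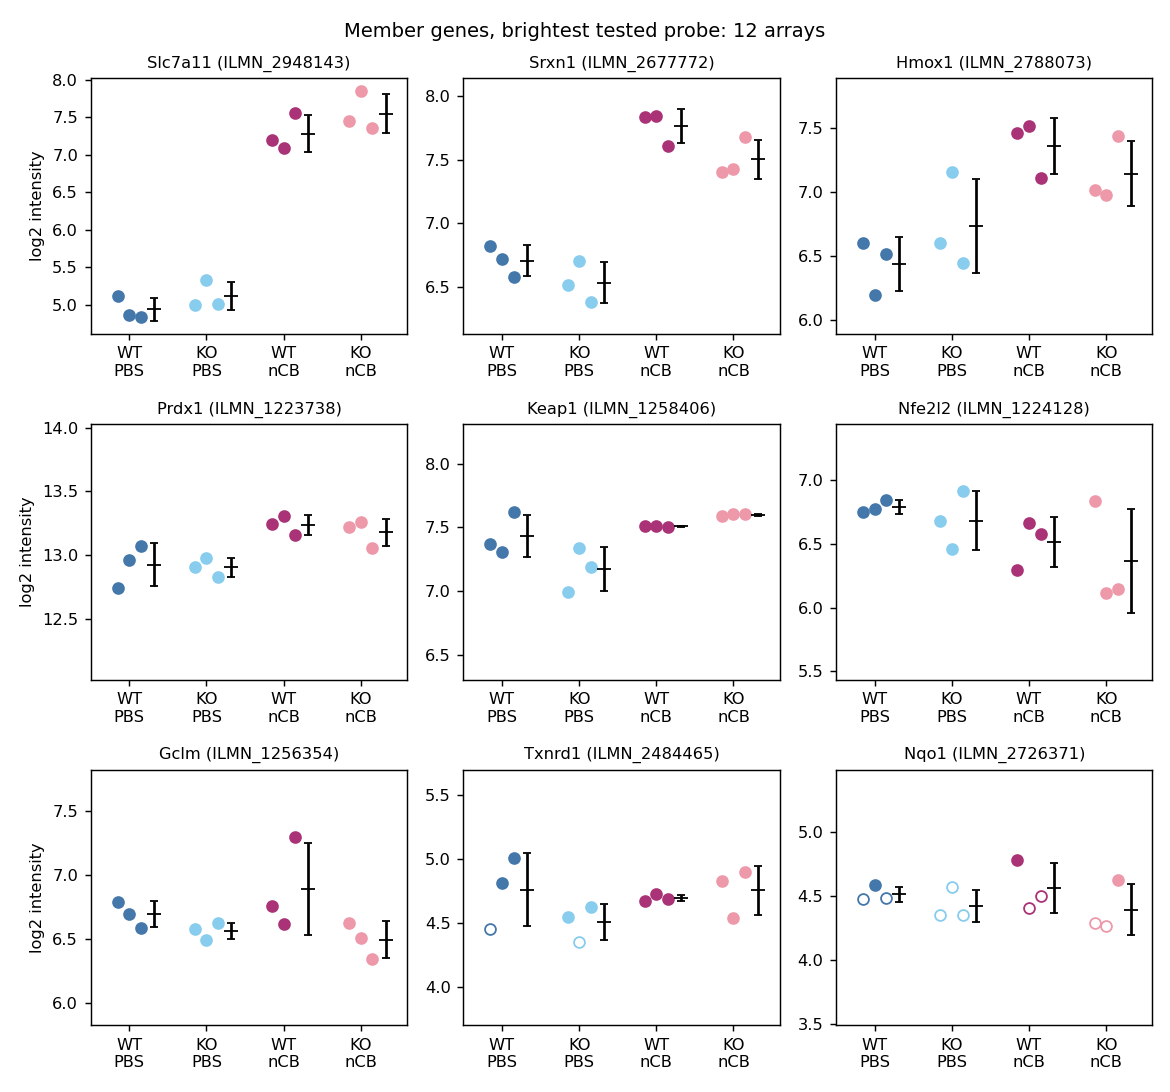
Log2 normalized intensity of the members by group, 1 panel per gene (its tested probe with the highest mean, axis ranges differing between panels), with 1 point per array (filled where the probe was detected) and the mean ± SD of the 3 arrays. The nCB arrays of Slc7a11 (7.09 to 7.84) sit above all PBS arrays (4.84 to 5.34), while those of Gclm, Nqo1 and Txnrd1 overlap with PBS in both genotypes.

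Slc7a11 encodes the transport subunit of system xc-, which takes up cystine for glutathione synthesis. Its probe ILMN_2948143, built on the RefSeq transcript, read log2 5.11, 4.87 and 4.84 in wild-type PBS and 5.00, 5.34 and 5.02 in knockout PBS. With nCB it read 7.19, 7.09 and 7.56 in wild type and 7.44, 7.84 and 7.36 in knockout. The exposed and reference arrays did not overlap, and the genotypes overlapped under either exposure. The rise was 2.34 ± 0.16 log2 units (limma SE), or 5.06-fold, in wild type (adjusted p = 4.13e-08) and 2.43 ± 0.16, or 5.38-fold, in knockout (adjusted p = 3.70e-08). The rise ranged over alternative settings from 1.05 to 3.50 in wild type and 1.18 to 3.39 in knockout, lowest without background correction and highest with the authors' values. The rises differed by 0.09 log2 units between genotypes (95% interval -0.39 to 0.57, adjusted p of the interaction 0.931).

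A second Slc7a11 probe on the same transcript, ILMN_2740738, was detected on 0 of 3 wild-type PBS arrays, 2 of 3 knockout PBS arrays and all 6 nCB arrays. It read 4.35, 4.47 and 4.38 in wild-type PBS, 4.68, 4.97 and 4.44 in knockout PBS, 5.65, 5.75 and 6.06 in wild-type nCB and 5.67, 5.43 and 5.47 in knockout nCB. All nCB arrays lay above all PBS arrays. Because this probe was not detected in wild-type PBS, its wild-type rise is a bound, at least 2.43-fold (adjusted p = 4.18e-06), and the knockout rise was 0.82 ± 0.15 log2 units (adjusted p = 0.00105). The bound sets each wild-type PBS array at the lowest value among its detected probes, or at the probe's own value if that was higher. The interaction did not pass (adjusted p = 0.330), and the size of the difference between the rises is not given because the wild-type rise is a bound. The knockout rise ran from 0.24 without background correction to 2.18 with the authors' values and passed each time.

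The other 3 Slc7a11 probes did not show this rise. ILMN_2568074, built on a cDNA clone entry, read 4.89, 4.65 and 4.62 in wild-type PBS, 4.50, 4.45 and 4.39 in knockout PBS, 4.76, 4.91 and 4.32 in wild-type nCB and 4.52, 4.41 and 4.62 in knockout nCB. Its nCB differences were -0.06 log2 units in wild type (adjusted p = 0.854) and 0.06 in knockout (0.823), and the groups overlapped in both genotypes. It was detected on 6 of 12 arrays, and its values lie next to the lowest log2 values at which any probe was detected (4.51 to 4.60, by array). ILMN_2463432, on the RefSeq transcript, ran from 4.13 to 4.67 over the 12 arrays, and ILMN_2574165, on another clone entry, from 4.24 to 4.62. Each of these was detected on 1 array and was not tested, so the 5 probes split into 2 that rose in both genotypes and 3 at or near the detection limit.

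**Figure D2:**
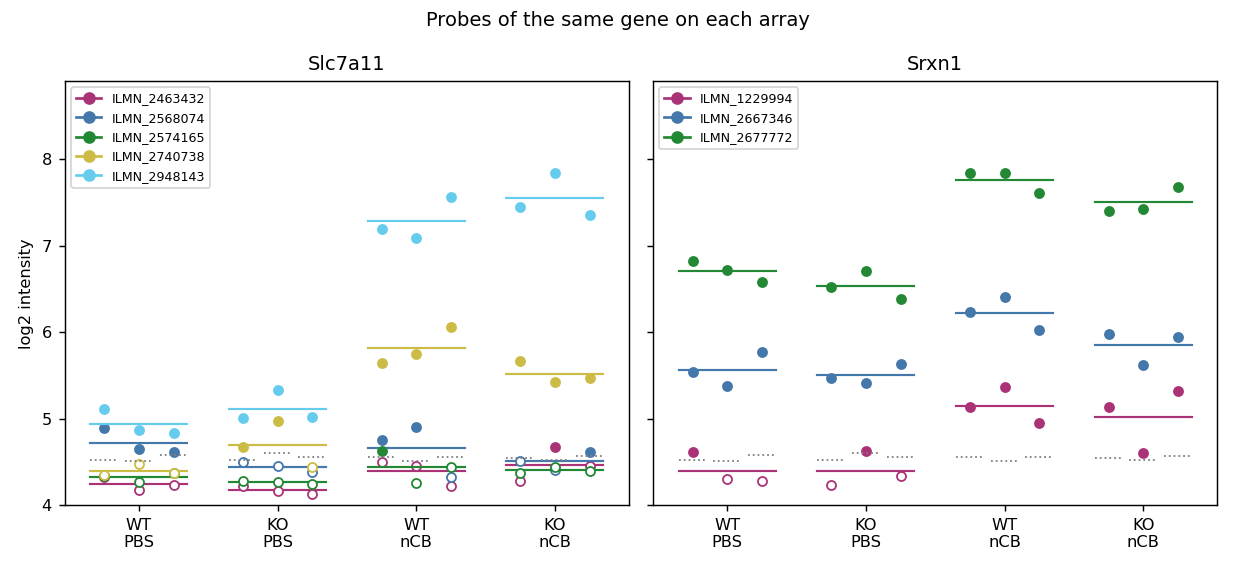
Log2 normalized intensity of every probe of Slc7a11 and Srxn1, by array, with filled points where the probe was detected, a bar at each group mean and dotted grey lines at the lowest value detected on that array. For Slc7a11, 2 probes stand higher on all nCB arrays and 3 lie near the dotted lines on every array.

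Srxn1 (sulfiredoxin, chr2:152105524-152111376) had 3 probes, all on its RefSeq transcript. ILMN_2677772 read 6.82, 6.72 and 6.58 in wild-type PBS, 6.52, 6.70 and 6.39 in knockout PBS, 7.83, 7.84 and 7.61 in wild-type nCB and 7.40, 7.43 and 7.67 in knockout nCB. All 6 nCB arrays were above all 6 PBS arrays. The rise was 1.05 ± 0.13 log2 units, or 2.08-fold, in wild type (adjusted p = 2.54e-05) and 0.97 ± 0.13, or 1.95-fold, in knockout (8.06e-05). Without background correction these rises were 0.67 and 0.58, and both passed.

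The other Srxn1 probes gave smaller differences. ILMN_2667346 read 5.54, 5.38 and 5.78 in wild-type PBS, 5.47, 5.41 and 5.64 in knockout PBS, 6.23, 6.40 and 6.03 in wild-type nCB and 5.98, 5.63 and 5.94 in knockout nCB. Its groups separated in wild type, with a rise of 0.65 ± 0.14 (adjusted p = 0.00464), from 0.27 without background correction to 0.96 with the authors' values. They overlapped in knockout, where the difference of 0.34 ± 0.14 did not pass (0.130). The wild-type call was lost where arrays were scaled to the median of all probes of the file (0.55, adjusted p = 0.0806).

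ILMN_1229994, the dimmest Srxn1 probe, was detected on 1 array of each PBS group and on all 6 nCB arrays. It read 4.61, 4.31 and 4.28 in wild-type PBS, 4.24, 4.63 and 4.34 in knockout PBS, 5.13, 5.36 and 4.96 in wild-type nCB and 5.14, 4.61 and 5.32 in knockout nCB. Wild-type arrays separated, with a rise of 0.75 ± 0.18 (adjusted p = 0.00790), from 0.21 without background correction to 2.73 with the authors' values. Knockout arrays overlapped, with a rise of 0.62 ± 0.18 (0.0274) that passed under 2 of 9 alternative settings (0.18 to 2.33, highest adjusted p = 0.0944). The knockout call was also lost without knockout PBS 1 (0.0973), knockout PBS 3 (0.0871), knockout nCB 1 (0.0884) or knockout nCB 3 (0.120).

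Hmox1 (haem oxygenase 1, chr8:75093618-75100593) had 1 probe. It read 6.60, 6.20 and 6.52 in wild-type PBS, 6.60, 7.15 and 6.45 in knockout PBS, 7.46, 7.52 and 7.11 in wild-type nCB and 7.02, 6.98 and 7.44 in knockout nCB. Wild-type groups did not overlap, while knockout PBS 2 stood within the range of the knockout nCB arrays. The wild-type rise was 0.93 ± 0.19 log2 units, or 1.90-fold (adjusted p = 0.00247; 0.54 without background correction), and the knockout difference of 0.41 ± 0.19 did not pass (0.170). Without knockout PBS 2, the array with the lowest mean intensity (156), the knockout difference was 0.62 and passed (0.0315). The difference between genotypes in the nCB effect was -0.52 log2 units (95% interval -1.08 to 0.05, adjusted p = 0.550), so a smaller knockout rise was not shown.

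Keap1, the substrate adaptor that marks NRF2 for degradation, had 4 tested probes. ILMN_1258406 read 7.37, 7.31 and 7.62 in wild-type PBS, 6.99, 7.34 and 7.19 in knockout PBS, 7.51, 7.51 and 7.50 in wild-type nCB and 7.59, 7.60 and 7.61 in knockout nCB. The nCB arrays lay close to each other in either genotype, and knockout PBS lay below knockout nCB without overlap. Knockout cells showed a rise of 0.43 ± 0.12 (adjusted p = 0.0263), against a difference of 0.08 in wild type (0.758), and the interaction of 0.35 did not pass (0.526). The knockout call was lost under 4 of 10 alternative settings (highest adjusted p = 0.255), and the rise was 0.28 without background correction. It was also lost without knockout PBS 1 (0.108), knockout PBS 3 (0.0649) or knockout nCB 1, 2 or 3 (0.0604, 0.0686 and 0.0617).

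The other tested Keap1 probes did not pass in either genotype alone, except ILMN_2993267 in wild type without background correction (0.17, adjusted p = 0.0440). ILMN_2993267 differed by 0.26 log2 units in wild type (adjusted p = 0.148) and 0.26 in knockout (0.157), ILMN_2707771 by 0.24 (0.388) and 0.34 (0.191), and ILMN_2621346 by 0.05 (0.877) and 0.21 (0.395). All 8 differences of the 4 probes were above 0 as given here, but scaling to the median of all probes turned the wild-type values of ILMN_1258406 and ILMN_2621346 to -0.11 and -0.07. The probe on a clone entry, ILMN_2442976, ran from 4.28 to 4.55 and was detected on 1 array.

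Nfe2l2, which encodes NRF2 itself, did not rise. Its detected probe ILMN_1224128 read 6.75, 6.77 and 6.84 in wild-type PBS, 6.68, 6.46 and 6.91 in knockout PBS, 6.30, 6.67 and 6.58 in wild-type nCB and 6.84, 6.12 and 6.14 in knockout nCB. In wild type the nCB arrays lay just below the PBS arrays without overlap, and in knockout they overlapped. The difference was -0.27 ± 0.18 in wild type (adjusted p = 0.364) and -0.32 ± 0.18 in knockout (0.277). Without knockout nCB 1, whose value stood apart from the other 2, the knockout value was -0.55 and passed (0.0290), as did the value averaged over genotypes (-0.41, 0.00891). The other probe, ILMN_1214369, ran from 4.18 to 4.53 and was detected on 1 array.

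Prdx1, a peroxiredoxin that reduces hydrogen peroxide and is restored by sulfiredoxin after overoxidation, had a bright and a dim probe. ILMN_1223738 read 12.74, 12.97 and 13.07 in wild-type PBS, 12.91, 12.98 and 12.83 in knockout PBS, 13.25, 13.31 and 13.16 in wild-type nCB and 13.22, 13.26 and 13.06 in knockout nCB. The nCB arrays lay above the PBS arrays in both genotypes without overlap. The differences of 0.31 ± 0.12 in wild type (adjusted p = 0.0967) and 0.27 ± 0.12 in knockout (0.151) did not pass. Both passed without background correction (0.0187 and 0.0389). The dim probe ILMN_2989706 was detected on 3 of 12 arrays and differed by 0.08 in each genotype.

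Gclm, the modifier subunit of the enzyme that starts glutathione synthesis, read 6.79, 6.70 and 6.59 in wild-type PBS, 6.57, 6.49 and 6.62 in knockout PBS, 6.76, 6.62 and 7.30 in wild-type nCB and 6.63, 6.51 and 6.34 in knockout nCB. The groups overlapped, and wild-type nCB 3 alone stood above 7. The nCB differences were 0.20 ± 0.16 in wild type (adjusted p = 0.452) and -0.07 ± 0.16 in knockout (0.822). Txnrd1, the thioredoxin reductase of the cytosol, read 4.35 to 5.01 over the 12 arrays and was detected on 10, with differences of -0.06 (0.839) and 0.25 (0.306). Nqo1, a quinone reductase often used as a readout of NRF2, read 4.26 to 4.78 and was detected on 3 of 12 arrays, with differences of 0.05 (0.868) and -0.03 (0.910). At these intensities a change of Nqo1 or Txnrd1 below the detection limit could not be seen.

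**Figure D3:**
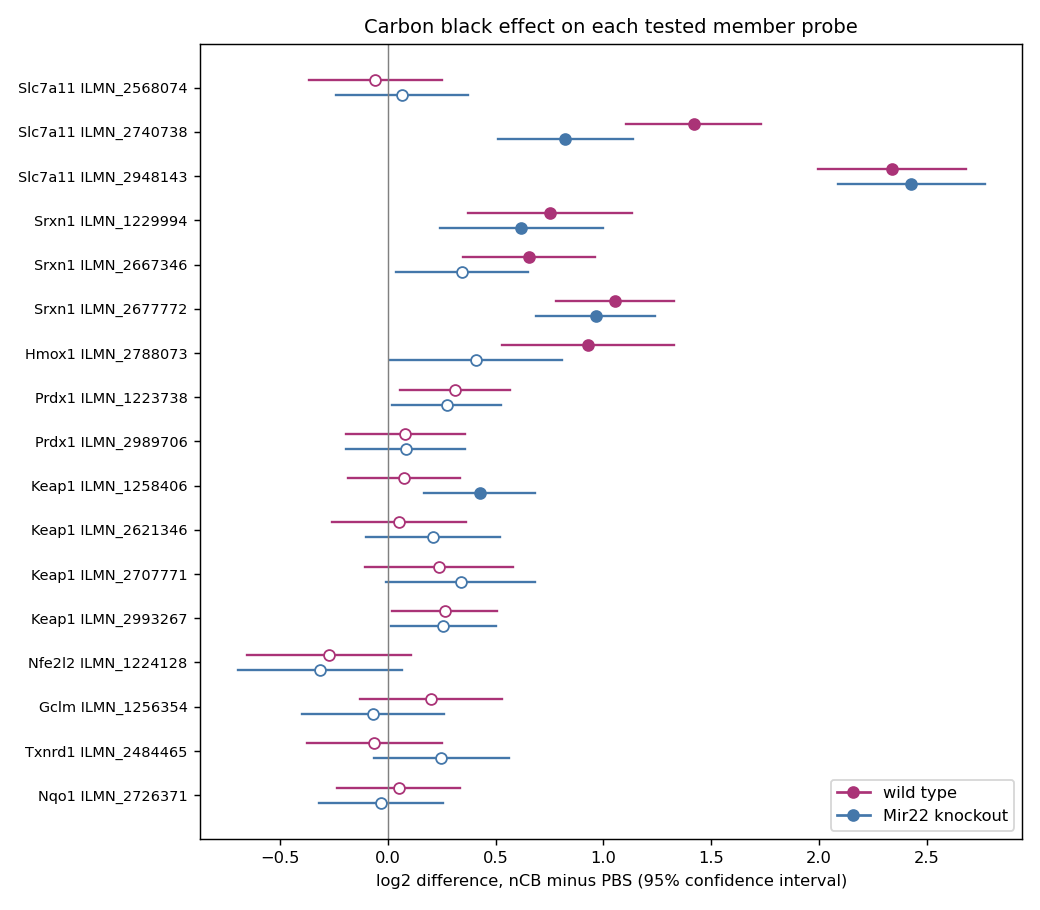
Log2 difference between nCB and PBS for each of the 17 tested probes in wild type and knockout, with 95% intervals from limma and filled points where the adjusted p was under 0.05. The Slc7a11 probe ILMN_2948143 (2.34 and 2.43) stands farthest from 0, and Srxn1 ILMN_2677772 is at 1.05 and 0.97. The wild-type point of Slc7a11 ILMN_2740738 is a fitted difference from PBS arrays that did not detect the probe.

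Genotype made no difference that passed for any member. In knockout against wild type under PBS, 0 of 17 member probes passed limma's adjusted p, against 0.778% of all probes, and 0 had an unadjusted p under 0.05. Under nCB 0 of 17 passed, against 3.4% of all probes, and 2 had an unadjusted p under 0.05, Gclm (-0.40, adjusted p = 0.195) and Srxn1 ILMN_2667346 (-0.37, 0.197). For the interaction 0 of 17 passed, against 0.0634% of all probes, and 1, Slc7a11 ILMN_2740738, had an unadjusted p under 0.05. The genotype groups did not overlap for 1 probe under PBS (Slc7a11 ILMN_2568074, lower in knockout) and for 3 under nCB, against 12.6% and 19.8% of all probes. The 3 were Keap1 ILMN_1258406, higher in knockout, and Keap1 ILMN_2993267 and Srxn1 ILMN_2667346, lower in knockout.

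Averaged over both genotypes, a comparison added after the data were seen, nCB raised 9 of 17 member probes and lowered 0, against 11.6% higher and 13.3% lower over all probes. They lay in 5 genes. Beside Slc7a11, Srxn1 (all 3 probes) and Hmox1 (0.67), they were Prdx1 ILMN_1223738 (0.29, adjusted p = 0.0182) and Keap1 ILMN_1258406 (0.25, 0.0438) and ILMN_2993267 (0.26, 0.0273). Without 1 array at a time the count ran from 6 (without wild-type PBS 1) to 10 (without knockout PBS 2). Keap1 ILMN_1258406 passed here only without wild-type PBS 3 or knockout PBS 2 (adjusted p otherwise 0.0664 to 0.112). Keap1 ILMN_2993267 was lost without wild-type PBS 1 (0.0724), knockout PBS 1 (0.0567), wild-type nCB 1 (0.0633) or knockout nCB 1 (0.0657), and Prdx1 without wild-type PBS 1 (0.0510). Scaling to the median of all probes ended all 3 calls (0.226 to 0.559), and scaling to the median of the tested probes ended both Keap1 calls (0.175 and 0.178). ILMN_1258406 was also lost with the authors' values (0.0673) and with the replicate number as a block (0.0590).

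Other genes were taken from a list of 78 genes grouped by role, of which 61 were tested, each by its probe with the highest mean. The list holds regulators and genes of related roles and is not limited to genes that NRF2 is known to activate. It was chosen with earlier results of these data known, so an excess over the shares below is a description and not a test. Each gene counts once here, while the shares over all probes count every tested probe, dim ones included. In wild type 14 rose and 6 fell with nCB (23.0% and 9.84%), and in knockout 12 rose and 9 fell (19.7% and 14.8%), against the shares of 7.88% and 8% (wild type) and 7.81% and 7.38% (knockout) over all probes. Of these, 10 rose in both genotypes and 5 fell in both. The interaction passed for 0 of the 61, against 0.0634% of all probes. The median over the 61 was 0.03 in wild type and -0.02 in knockout, so the list as a whole stood near the -0.02 of all probes.

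Akr1b8 is an aldo-keto reductase that detoxifies reactive aldehydes. It read 4.38, 4.67 and 4.84 in wild-type PBS, 4.53, 4.97 and 4.47 in knockout PBS, 6.96, 6.98 and 6.86 in wild-type nCB and 6.68, 6.82 and 7.10 in knockout nCB, with no overlap between exposures. Akr1b8 was detected on 2 of 3 arrays in each PBS group and on 3 of 3 in each nCB group. Wild-type PBS 1 and knockout PBS 3 lay below the lowest value detected on their arrays (4.52 and 4.55). The rise, from PBS values near the detection limit, was 2.30 ± 0.16 in wild type (adjusted p = 4.14e-08) and 2.21 ± 0.16 in knockout (9.43e-08). It ran from 0.91 and 0.87 without background correction to 4.33 and 4.17 with the authors' values, past the threshold each time. Of 17 detoxifying enzymes and exporters, 6 rose and 2 fell in wild type (35.3% and 11.8%). In knockout 4 rose and 4 fell (23.5% each way). The shares over all tested probes were 7.88% higher and 8% lower in wild type, and 7.81% and 7.38% in knockout. Ephx1, the microsomal epoxide hydrolase, rose by 1.05 and 0.87 log2 units (adjusted p = 3.61e-05 and 2.89e-04).

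Among 8 genes of glutathione synthesis and use, 2 rose and 0 fell in each genotype (25% higher). Against this, 7.88% of all tested probes rose and 8% fell in wild type, and 7.81% and 7.38% in knockout. Chac1, which degrades glutathione, rose by 1.46 in wild type (adjusted p = 1.64e-05) and 1.54 in knockout (1.29e-05). Glrx, glutaredoxin, which removes glutathione from proteins, rose by 0.81 (3.52e-04) and 0.65 (0.00278). Of 10 genes of the thioredoxin and peroxiredoxin system, 2 rose and 1 fell in wild type (20% and 10%). In knockout 1 rose and 1 fell (10% each way), near the shares over all probes. Prdx4, the peroxiredoxin of the endoplasmic reticulum, rose by 1.11 (4.04e-05) and 0.68 (0.00378), and Txnip, the inhibitor of thioredoxin, fell by 0.73 (1.55e-04) and 0.70 (3.05e-04).

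Of 9 further regulators, 1 rose and 1 fell in wild type (11.1% each way) and 2 rose in knockout (22.2%). All tested probes gave 7.88% higher and 8% lower in wild type, and 7.81% and 7.38% in knockout. The wild-type counts of the regulators were thus near those shares. Mafg, a small MAF partner of NRF2, rose by 0.78 (adjusted p = 0.00699) and 0.80 (0.00645). Bach1, a repressor that competes with NRF2 for its motifs, fell by 0.58 in wild type (0.00441). In knockout it differed by -0.15, which did not pass (0.501), and its interaction of 0.43 did not pass (0.435). Dpp9, a peptidase known to bind KEAP1, rose by 0.58 in knockout (0.00412) and differed by 0.25 in wild type, which did not pass. Its second probe differed by 0.38 in knockout and 0.08 in wild type. The 4 tested genes of NADPH supply included 2 that fell in both genotypes, Idh1 by 0.63 and 0.60 (0.00157 and 0.00283) and Taldo1 by 0.49 and 0.39 (0.00792 and 0.0364). The Taldo1 call in knockout was lost without wild-type PBS 2 (0.0504), knockout PBS 1, 2 or 3 (0.105, 0.0702 and 0.0647) or knockout nCB 1 or 3 (0.0976 and 0.116).

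Of 9 genes of haem and iron handling, 2 rose and 0 fell in wild type (22.2% higher). In knockout 2 rose and 2 fell (22.2% each way). Among all tested probes 7.88% rose and 8% fell in wild type, and 7.81% and 7.38% in knockout. Ftl1, the ferritin light chain, rose by 0.54 in both (adjusted p = 0.0224 and 0.0218). The Ftl1 call was lost in wild type without wild-type PBS 2 (0.108) or nCB 1 or 2 (0.121 and 0.0685), and in knockout without knockout PBS 1 or 3 (0.0598 and 0.0805) or nCB 2 or 3 (0.0750 and 0.0836). Blvrb, a biliverdin reductase, rose by 0.51 in wild type (0.00809) and differed by 0.21 in knockout, which did not pass. Hp, which binds free haemoglobin, rose by 0.84 in knockout (0.00936) and differed by 0.19 in wild type, which did not pass. The other tested Hp probes differed by 0.47 and 0.56 in knockout. Of the 4 superoxide dismutase and catalase genes, 1 rose and 0 fell in each genotype, Sod2, the mitochondrial dismutase, by 0.51 in both (0.00503 and 0.00565). Catalase (Cat) differed by -0.30 (0.143) and -0.24 (0.246).

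Scaling to the median of all probes ended the calls of Mafg, Glrx, Taldo1, Ftl1 and Sod2 in both genotypes, of Blvrb in wild type and of Dpp9, Prdx4 and Idh1 in knockout (adjusted p from 0.0556 for Taldo1 to 0.355 for Sod2). Other settings ended at least 1 call of Ftl1 and the knockout calls of Taldo1, Hp and Sod2 (adjusted p from 0.0521 to 0.0865). Without background correction the values were smaller by over 1.5 times for Chac1 (0.51 and 0.56), Ephx1 (0.69 and 0.57), Mafg in wild type (0.51), Bach1 in wild type (-0.27) and Dpp9 in knockout (0.25), and with the authors' values those of Chac1 were 2.79 and 2.80.

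**Figure D4:**
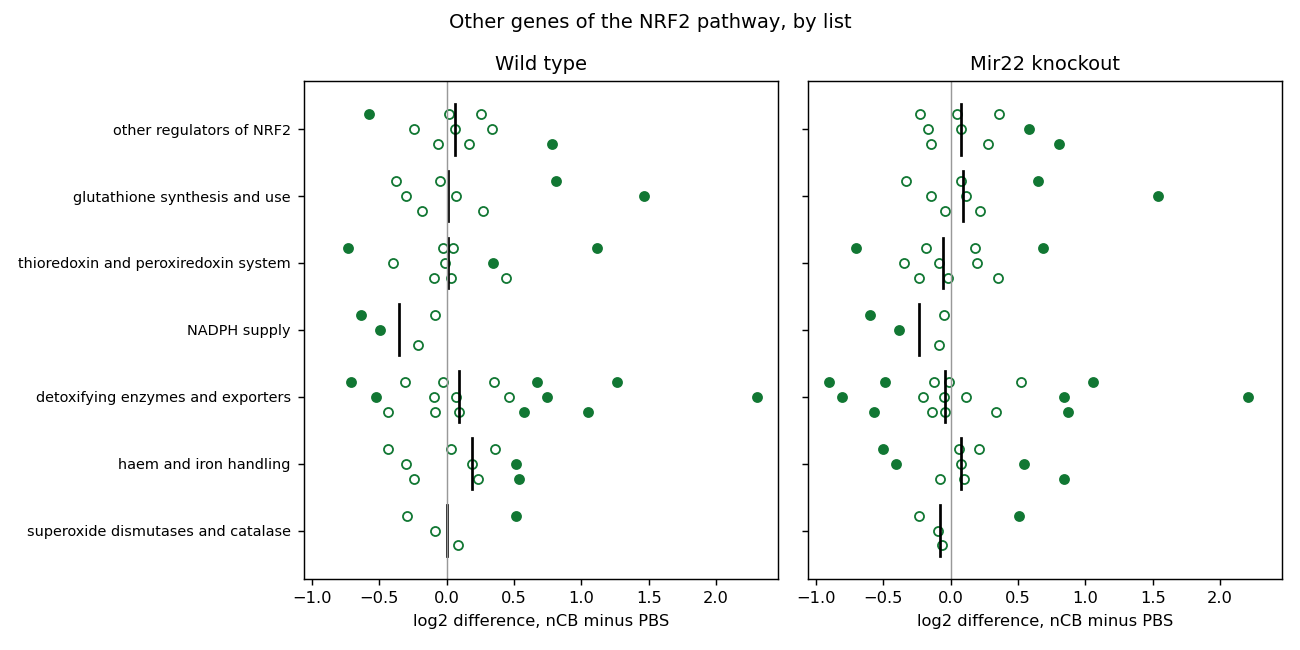
Log2 difference between nCB and PBS for the 61 other listed genes (regulators of NRF2 and genes of related roles), in wild type and knockout. Filled points mark an adjusted p under 0.05, and a black line marks each list's median. The list medians run from -0.35 (NADPH supply) to 0.19 (haem and iron handling), both in wild type, with Akr1b8 (2.30 and 2.21) and Chac1 (1.46 and 1.54) far above the medians of their lists.

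The probes most like the members across the 12 arrays were found by the root mean square difference of log2 values centred on each probe's mean. For Slc7a11 ILMN_2948143 they were those of Igf2r (0.191), Rai14 (0.214) and Mfge8 (0.233), and for Srxn1 ILMN_2677772 those of Gpr137b (0.0859), Cdkn1a (0.131) and St6galnac4 (0.133). For Hmox1 they were those of Cd83 (0.131), Plpp3 (0.155) and Crtap (0.159), and for Keap1 ILMN_1258406 those of Krtcap3 (0.0927), Efr3b (0.0989) and Bcl7c (0.0994). Distances are not comparable between members, whose own spread differed. The SD over the 12 arrays was 1.26 for Slc7a11, 0.553 for Srxn1, 0.441 for Hmox1 and 0.194 for Keap1.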

How the data were processed

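RNA of 12 samples was measured on bead arrays. The deposited table holds a scanned intensity per probe and array, exported with GenomeStudio (per the submitters' processing notes, version not given there), and beside it a detection p-value deposited under its own header, in steps of 1 in 936. The authors' processed matrix is on a log2 scale, judged from its values quantile-normalized (median 3.12), for 24952 probes, and served as an alternative. No slide is named.

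Intensities were background-corrected and quantile-normalized with the neqc function (R 4.3.3, limma 3.58.1; offset 16, background from detection p-values). Tested were the 17346 probes that at least 3 of 12 arrays detected (p under 0.05). Of the file's probes, 20501 carry 1 gene symbol and 11 several. The limma model had 1 mean for each group, over all 12 arrays (residual degrees of freedom 8, prior 7.49), two-sided, with Benjamini-Hochberg adjustment over all tested probes. The model was run on simulated data with independent noise and probes shifted in wild-type nCB only. This checks the calculation, and cannot show whether calls hold where replicates may be technical or the cell mix differs. An exact permutation test of 3 against 3 cannot give a p under 0.1. The number of arrays limits the precision.

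Every member probe was named, and from each pathway list the 2 genes with the smallest p in each nCB comparison. Gene positions, promoters and miR-22 came from RefSeq tables (GRCm38.p6), with promoter windows for 8 of the 10 genes. Members and lists were chosen with earlier results of these data known. Whether equal replicate numbers pair samples is not said in the labels. After removing group means, 5 of 18 same-numbered pairs correlated above 0.1 (-0.31 to 0.19). Differently numbered pairs were not computed, so these values cannot show whether samples were paired. The alternatives tried were other scalings, background settings and filters, the authors' values, 1 probe per gene, fewer groups and leaving out each array.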

Additional observations from a re-analysis of the deposited data

How the results depend on the processing

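Over 102 member values under all alternatives (2150 values), 2099 stayed on their side of the threshold, 43 lost and 8 gained a call, and no call reversed. Of the 2099, 1720 were past the threshold neither before nor after, and 84 of these changed sign. The cause of the changes below was not tested, except that 1 probe per gene leaves fewer probes. With 1 probe per gene, the called member probes numbered 3 in wild type, 3 in knockout and 5 averaged over genotypes. In knockout they also numbered 3 under median scaling over tested or over all probes of the file, with the authors' values and with only the groups compared. The size of a difference depends on the background step: for Slc7a11 ILMN_2948143 it ran from 1.05 without background correction to 3.50 with the authors' values in wild type and from 1.18 to 3.39 in knockout, past the threshold each time. Leaving out 1 array gave 6 to 6 called member probes in wild type, 3 to 6 in knockout, 0 to 0 for genotype and interaction and 6 to 10 averaged. Over all probes it gave 2007 to 2826 calls in wild type, 1885 to 2639 in knockout, 87 (without wild-type PBS 1) to 142 for genotype under PBS, 213 (without knockout nCB 2) to 718 under nCB, with 263 and 379 without wild-type nCB 1 and 2, 7 (without knockout PBS 3) to 32 (without knockout nCB 3) for the interaction, with 25 without wild-type nCB 2, and 3758 to 4163 averaged. Scaling to the median of all probes, added after seeing the data, shifted the median of the tested probes to -0.10 for nCB in wild type and -0.119 for genotype under PBS. It gave 1635 calls in wild type, 1087 in knockout (59.9% of them higher, 51.4% otherwise), 164 for genotype under nCB (29.9% higher, 54.1% otherwise), 99 under PBS (21.2% higher, 38.5% otherwise), 7 for the interaction (14.3% higher, 27.3% otherwise) and 2630 averaged. Genotype under nCB had 590 calls, against 191 with the authors' values, 334 with no filter and 383 with only the groups compared. The interaction had 11, against 20 without background correction, 27 with an offset of 50 and 7 with no filter. With the replicate number as a block, 6 member probes passed in wild type and 5 in knockout, with 2502 and 2383 calls over all probes. The slide as a block was not run because no slide is named. The probe's brightness limits Nqo1, Txnrd1 and the dim probes of Slc7a11, Keap1, Nfe2l2 and Prdx1.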

Other observations

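Catalase, which breaks down hydrogen peroxide, was the only gene of the 61 listed genes outside the members to pass in knockout against wild type under PBS, and it passed under nCB too. Its probe ILMN_2826110 read 6.57, 6.97 and 6.67 in wild-type PBS and 7.79, 7.57 and 7.81 in knockout PBS. With nCB it read 6.54, 6.42 and 6.36 in wild type and 7.38, 7.56 and 7.51 in knockout. All 6 knockout arrays were above all 6 wild-type arrays, by 0.99 log2 units under PBS (adjusted p = 4.05e-04) and 1.04 under nCB (2.08e-04, limma), against 0.778% and 3.4% of all probes that passed. Under PBS the call was lost with arrays scaled to the median of all probes (0.81, adjusted p = 0.212). The gene lies on chromosome 2, and its other probe was detected on 2 of 12 arrays and was not tested.

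Under nCB, 3 of the 61 genes were higher in knockout and 1 lower, against 1.84% higher and 1.56% lower over all probes. Cbr3, a carbonyl reductase, was lower by 0.68 log2 units (adjusted p = 0.00719), and its second probe differed by -0.77. Gstm1, a glutathione transferase, was higher by 0.69 (0.0416) and Dpp9 by 0.49 (0.0423). Their second tested probes differed by -0.12 (Gstm1, detected on 5 of 12 arrays) and 0.19 (Dpp9). Cat was the third. Cbr3 and Gstm1 were named after their values were seen. The Gstm1 and Dpp9 calls were lost with the replicate block (0.0715 and 0.0735) and under median scaling (0.166 and 0.104), and passed in 3 and 2 of the 12 models without 1 array (highest 0.181 and 0.185). The Cbr3 call was lost with arrays scaled to the median of all probes (0.121). The part of the cell type markers, which also differed between genotypes under nCB (3 of 13 alveolar macrophage markers higher and 0 lower, 1 of 12 monocyte markers higher and 4 lower, 1 of 9 dendritic cell markers lower), was not tested.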
